A study of Mus musculus with 31 samples.

Results

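Mouse breast tumours of the MT model that had received poly I:C and phenformin together were compared with MT tumours that had received vehicle. The 8 libraries are those titled MT combination 1 to 4 and MT control 1 to 4, out of 16 MT libraries and 31 libraries in the series. Per the labels, control animals received saline and PBS, the combination group received poly I:C and phenformin, and every library carries the genotype tag WT. The tumours grew in the mammary site of syngeneic mice, and bulk poly(A) RNA was sequenced with strand-specific libraries. Doses, treatment times and the age of the mice are not given in the sources used here. The study design pairs MT with FVB mice, whereas the MT-titled libraries carry BALBc and 4T1-537 in their strain and cell line tags, so groups follow the titles. H2-Ea-ps, an MHC class II alpha chain gene that the FVB haplotype does not express and the BALB/c haplotype does, lay between 5.24 and 53 CPM (a gene's counts scaled to a fixed library total, as the edgeR cpm function gives them) in the MT-titled libraries and between 214 and 970 CPM in the 4T1-titled ones. The labels do not say whether each replicate is a separate animal, so p-values measure the spread between these libraries.

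Poly I:C mimics viral double-stranded RNA. It is sensed by Toll-like receptor 3 and by the cytosolic helicases RIG-I and MDA5, and induces interferon and inflammatory genes. Phenformin belongs to the biguanides, as metformin does, and blocks mitochondrial complex I. Neutrophils mature in the bone marrow in steps that leave a record in their RNA. Promyelocytes transcribe the primary granule proteases and myeloperoxidase, later precursors transcribe the secondary granule proteins, and mature cells switch most of these genes off while they express receptors such as CXCR2 and the calprotectin subunits S100A8 and S100A9. In bulk tissue, more cells of a type and more RNA per cell cannot be told apart.

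The 4 control libraries did not form 1 group. Sox10, a neural crest transcription factor that is also found in a subset of mammary tumours, measured 177, 224 and 177 CPM in control replicates 1 to 3, called here the Sox10-high controls, and 1.32 CPM in control replicate 4. In the combination libraries Sox10 lay between 0.690 and 3.13 CPM, beside control replicate 4 and far below the other controls. Krt5, a basal keratin, showed the opposite arrangement, with 30.4, 22 and 24.1 CPM in the Sox10-high controls, 2231 CPM in control replicate 4, and 340, 2154, 1868 and 1708 CPM in combination replicates 1 to 4. The first principal component of the 16 MT libraries held 67.0% of the variance of the genes used, and on it control replicates 1 to 3 lay between 81.3 and 83.3, control replicate 4 at -42.4 and the combination libraries between -96.2 and 0.499. The combination libraries also differed among themselves. Igkc, the kappa light chain of plasma and B cells, measured 8993 CPM in combination replicate 1 and 2127 CPM in replicate 4, as against 125 CPM in replicate 2 and 28.6 CPM in replicate 3, and Krt8, a luminal keratin, was lowest in combination replicate 1 at 83.9 CPM against 290 to 412 CPM in the other 3. Treatment is therefore compared across libraries that also differ in Sox10 and Krt5, and the part of that difference in each result was not tested. Beside the results stand the values from a fit without the MT libraries above 10 CPM of Sox10, in which control replicate 4 is the only control.

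**Figure D1:**
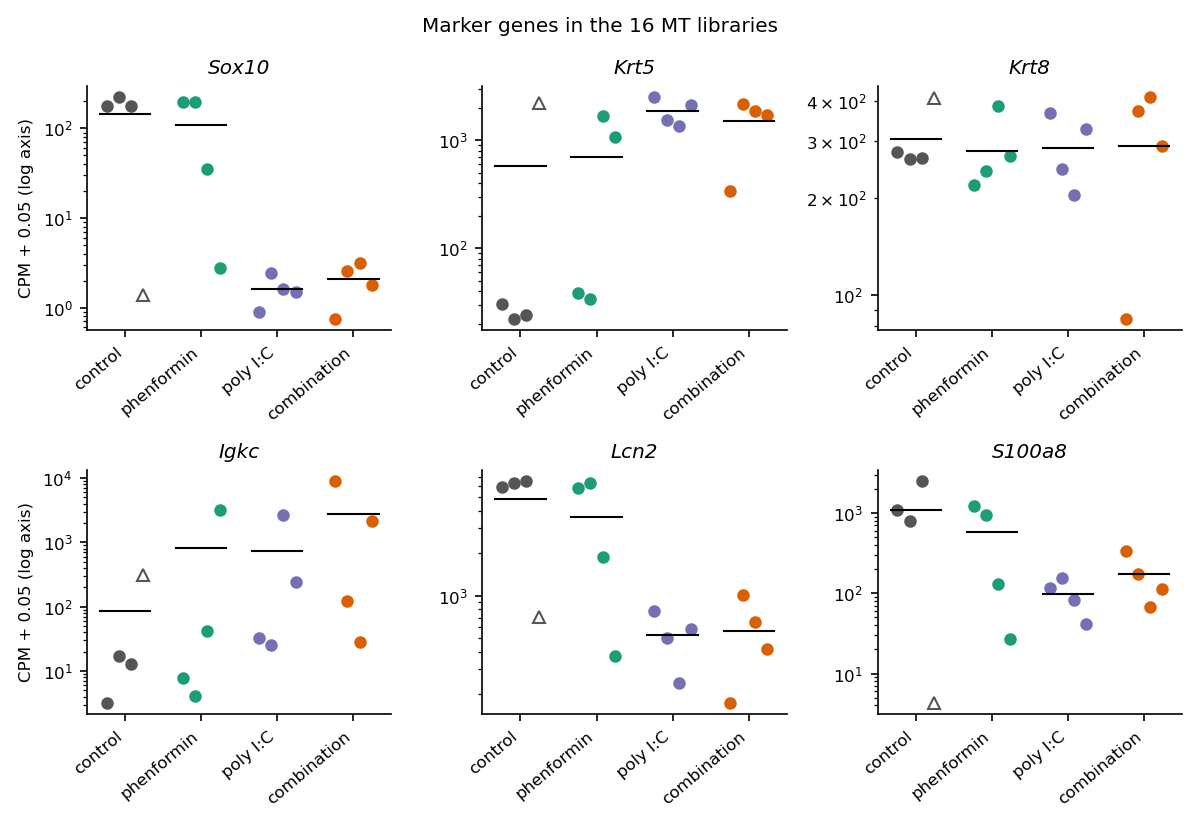
CPM plus 0.05 on a log axis for 6 marker genes in the MT libraries, by treatment group. Points are libraries, bars are group means and the open triangle is control replicate 4, which lies with the combination libraries for Sox10, Krt5 and Lcn2 and apart from all of them for S100a8 at 4.21 CPM.

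The comparison called 1096 of 17857 genes tested, or 6.14%, at an adjusted p under 0.05 in edgeR's quasi-likelihood test with Benjamini-Hochberg adjustment. Of these, 501 genes (2.81%) were higher in the combination and 595 (3.33%) lower, and the median log2 fold change over all genes tested was 0.02. Libraries of the 2 groups did not overlap for 1091 genes (6.11%) that were higher in every combination library and for 1064 genes (5.96%) that were lower in every one. The number of calls rested on single libraries. It was 19 without control replicate 1, 24 without control replicate 2, 208 without control replicate 3 and 5375 without control replicate 4, and 62 to 673 when a combination library was left out. Apart from 2 neutrophil lists and the mast cell list described below, each gene list had 0 members called in at least 1 of these 8 fits. Without the libraries above 10 CPM of Sox10, edgeR called 0 genes, while 1170 had an unadjusted p under 0.05. With the Krt5 to Sox10 ratio (log2) as a covariate it also called 0 genes, with 2044 at an unadjusted p under 0.05, and the log2 fold change of Ngp, a neutrophil granule gene described below, was 4.90 (adjusted p = 0.138, edgeR). DESeq2 called 2916 genes and voom with quality weights 9378.

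The genes that rose and the genes that fell differed in where control replicate 4 lay. All 501 genes that rose kept a positive fold change against control replicate 4 alone, with a median log2 fold change of 1.14 there and 1.39 against all 4 controls. Of the genes that fell, 565 were in that fit and 515 of them kept a negative fold change, with a median of -0.31 there against a median drop of 0.81 in the comparison of all 8 libraries. Control replicate 4 lay nearer to the combination mean than to the mean of the other controls for 68.4% of the genes that fell and for 21% of those that rose. All these genes were called with control replicate 4 among the controls. Of them, 450 that rose and 423 that fell did not overlap between the groups. Their direction against control replicate 4 was thus largely fixed by the choice of genes and is no separate check.

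**Figure D2:**
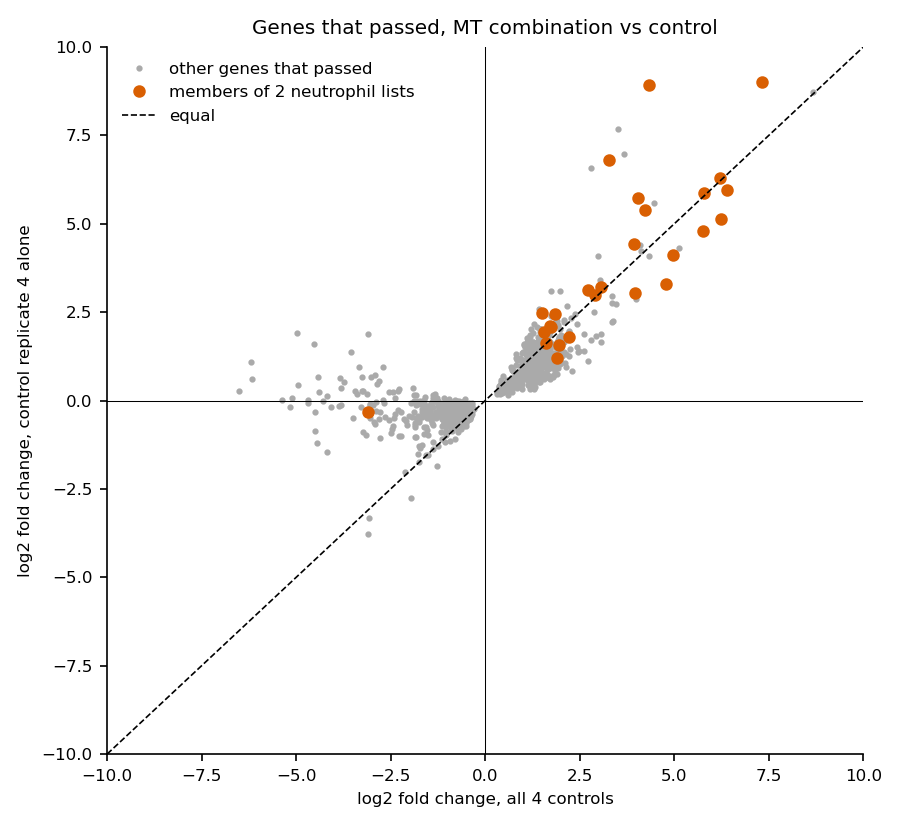
Log2 fold change of the combination over all 4 controls (horizontal axis) and over control replicate 4 alone (vertical axis) for 1066 genes that passed. Grey dots are genes, orange circles are members of 2 neutrophil lists and the dashed line marks equal values. On both axes 26 of the 27 circles lie above 0. The genes were called with control replicate 4 among the controls, so the vertical axis is no separate check of direction. Fitted values of genes at 0 counts in control replicate 4 depend on the prior count.

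Granule genes of neutrophil precursors rose. In a list of 11 granule genes that immature neutrophils transcribe, 7 of 10 members tested rose and none fell. The median log2 fold change was 3.61, and over all genes 2.81% rose. Mpo, Elane, Ctsg, Ms4a3 and Cebpe, described below, had at most 9 counts in every control library. They were tested because treated libraries reached the filter's minimum, so they could hardly have been called lower. The list's share and that over all genes are thus not like for like. In a broader list of neutrophil markers 19 of 31 members rose and 1 fell, with a median of 1.73. Lcn2, S100a8, Slpi and G0s2 were the members with a log2 fold change below 0. The summed level of the marker list was 8479, 8478, 10865 and 1023 CPM in control replicates 1 to 4. It was 1990, 1803, 1049 and 1275 CPM in combination replicates 1 to 4, below the Sox10-high controls and above control replicate 4. With single libraries left out, 3 to 8 of the granule genes and 4 to 20 of the marker genes were called higher, and against control replicate 4 alone the medians were 4.80 and 2.08.

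Ngp encodes a secondary granule protein of the cathelicidin-like family. Its level was 0.272, 0.736, 1.09 and 1.07 CPM in control replicates 1 to 4 and 79.8, 95.3, 33.2 and 56.7 CPM in combination replicates 1 to 4. The lowest combination library lay far above the highest control, and Ngp rose by 6.40 on the log2 scale (SE 0.916, adjusted p = 0.00638, edgeR). Against control replicate 4 alone the log2 fold change was 5.94.

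Mpo, the myeloperoxidase of primary granules, measured 0.0543, 0.409, 0.341 and 0.743 CPM in the controls and 27.7, 27.0, 9.16 and 18.3 CPM in the combination. It rose by 5.76 on the log2 scale (SE 0.793, adjusted p = 0.00607, edgeR), and control replicate 4, the highest control, lay below every combination library. Ctsg, the granule protease cathepsin G, was counted 0, 1, 1 and 2 times in the controls and 148, 104, 41 and 95 times in the combination libraries. The ratio of its summed counts per total was 92.0, with a 95% counting interval of 35.6 to 339. Elane, neutrophil elastase, was counted 5, 2, 4 and 0 times in the controls and 77, 75, 22 and 71 times in the combination, a ratio of 21.1 with an interval of 11.6 to 42.9. Ms4a3, a membrane protein of granulocyte and monocyte precursors, was counted 1 time in all 4 controls together and 83, 86, 33 and 60 times in the combination, a ratio of 248 with an interval of 44.2 to 9849. These intervals are exact and cover counting error only. Combination replicate 3 was the lowest of its group for each of these 4 genes and for Ngp.

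Cebpe, the transcription factor of the step to secondary granules, and Chi3l3, a chitinase-like protein of myeloid cells, also rose. Cebpe measured 0.0543 to 0.137 CPM in the controls and 0.941, 1.07, 0.118 and 0.700 CPM in the combination, so that combination replicate 3 lay within the control range. Chi3l3 measured 1.71 to 7.11 CPM in the controls and 18.4 to 32.3 CPM in the combination, a log2 increase of 2.73 (SE 0.573, adjusted p = 0.0262, edgeR).

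Camp, Prtn3 and Ltf, the 3 other granule genes tested, did not pass. Prtn3, the proteinase 3 gene beside Elane, measured 28.0, 29.1 and 33.5 CPM in the Sox10-high controls, 1.57 CPM in control replicate 4, and between 4.91 and 11.7 CPM in the combination (log2 fold change -1.30, adjusted p = 0.277, edgeR). Camp, the cathelicidin precursor, measured 40.6, 25.5 and 58.3 CPM in the Sox10-high controls, 0.495 CPM in control replicate 4, and between 8.16 and 22.5 CPM in the combination (log2 fold change -1.14, adjusted p = 0.408, edgeR). For both genes every combination library lay between control replicate 4 and the other controls. Ltf, lactoferrin, measured 13.9 to 84.9 CPM in the controls and 76.7 to 228 CPM in the combination (adjusted p = 0.0818, edgeR).

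The promoters of 5 granule genes are shown because these genes rose together from almost no counts. The windows are from RefSeq (GRCm38.p6), run from 250 bases before to 50 bases after the annotated start and are written 5′ to 3′ on the gene's strand. Capitals mark GAGGAAG, a purine-rich word of the kind that ETS factors such as PU.1 bind, and TTGCNNAA, a word like that of C/EBP factors; both were searched on both strands, the words do not overlap in these windows, and they were chosen with the windows in view.
Mpo, chr11:87793534-87793833, plus strand, 2 matches to GAGGAAG: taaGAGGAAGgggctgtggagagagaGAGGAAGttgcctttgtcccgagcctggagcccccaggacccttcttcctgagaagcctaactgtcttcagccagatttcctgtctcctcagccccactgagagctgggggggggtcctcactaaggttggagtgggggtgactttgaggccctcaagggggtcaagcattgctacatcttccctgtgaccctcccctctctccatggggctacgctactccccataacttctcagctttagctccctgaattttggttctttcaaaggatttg
Elane, chr10:79886062-79886361, plus strand, 1 match to GAGGAAG: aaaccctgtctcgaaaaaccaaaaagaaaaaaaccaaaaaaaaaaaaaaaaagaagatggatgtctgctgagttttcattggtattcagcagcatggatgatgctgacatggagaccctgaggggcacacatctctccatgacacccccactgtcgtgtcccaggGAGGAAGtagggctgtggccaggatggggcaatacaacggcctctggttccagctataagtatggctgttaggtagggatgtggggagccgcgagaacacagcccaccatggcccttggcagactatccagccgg
Ctsg, chr14:56102525-56102824, minus strand, 1 match to GAGGAAG: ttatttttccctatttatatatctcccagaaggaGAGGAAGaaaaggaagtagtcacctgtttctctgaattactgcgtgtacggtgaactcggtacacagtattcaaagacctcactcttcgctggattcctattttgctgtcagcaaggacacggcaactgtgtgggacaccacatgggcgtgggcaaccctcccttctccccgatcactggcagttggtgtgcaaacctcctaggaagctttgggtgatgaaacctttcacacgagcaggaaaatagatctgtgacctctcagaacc
Ngp, chr9:110419558-110419857, plus strand, 2 matches to TTGCNNAA: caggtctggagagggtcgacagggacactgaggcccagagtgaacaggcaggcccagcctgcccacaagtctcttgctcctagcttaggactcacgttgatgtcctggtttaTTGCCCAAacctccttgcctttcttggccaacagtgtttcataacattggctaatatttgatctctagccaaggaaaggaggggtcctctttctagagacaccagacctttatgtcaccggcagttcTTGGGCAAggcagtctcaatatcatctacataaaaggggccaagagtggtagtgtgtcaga
Ms4a3, chr19:11640802-11641101, minus strand, 1 match to TTGCNNAA: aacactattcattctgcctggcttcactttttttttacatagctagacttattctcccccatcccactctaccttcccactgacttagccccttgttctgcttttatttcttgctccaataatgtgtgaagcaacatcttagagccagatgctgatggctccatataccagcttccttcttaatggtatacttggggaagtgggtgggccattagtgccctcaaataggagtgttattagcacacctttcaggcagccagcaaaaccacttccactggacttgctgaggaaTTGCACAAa
GAGGAAG stood in 13.5% of 27025 mouse promoters of this length and TTGCNNAA in 10.8% of them. Of 10 promoters of the granule list that the table held, 4 had GAGGAAG and 4 had TTGCNNAA. Prtn3 had 1 match to GAGGAAG and Ltf had 1 match to TTGCNNAA, and neither gene passed the test. Chi3l3, which passed, had 0 matches to either word, and so had Camp, which did not pass. No window was available for Cebpe, which also passed. The 5 windows shown thus do not stand for all granule genes that rose. A match describes these letters only.

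Genes of later neutrophil stages rose as well. S100a9, a calprotectin subunit, measured 10.1, 9.48, 17.7 and 4.70 CPM in the controls and 337, 232, 81.5 and 131 CPM in the combination. It rose by 4.21 on the log2 scale (SE 0.595, adjusted p = 0.00607, edgeR) and by 5.38 against control replicate 4 alone. S100a8, its partner subunit, did not follow it. It measured 1085, 793 and 2484 CPM in the Sox10-high controls, 4.21 CPM in control replicate 4, and 334, 175, 67.4 and 113 CPM in the combination, a log2 fold change of -2.66 (adjusted p = 0.169, edgeR) that was 5.36 against control replicate 4 alone. In control replicates 1 to 3 S100a8 thus stood far above S100a9 in CPM, while in control replicate 4 and the combination libraries the levels of both genes were close; the values are not per length.

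Stfa2, a stefin A protease inhibitor of granulocytes with near-identical neighbours among which reads can be split, measured 0.0543 to 0.137 CPM in the controls and 3.13 to 11.3 CPM in the combination (log2 fold change 6.20, SE 0.707, adjusted p = 0.00299, edgeR). Retnlg, a resistin-like secreted protein, rose by 4.98, Cd177, a neutrophil surface protein, by 4.03, and Mmp8, the neutrophil collagenase, by 3.95 on the log2 scale. Ifitm6, a membrane protein of myeloid cells, rose by 4.12, and Stfa2l1, another stefin, by 3.93. Libraries of the 2 groups did not overlap for any of these 6 genes, as the rule that named them required. Over all genes, 6.11% were higher without overlap. Log2 fold changes of the 6 genes against control replicate 4 alone were 3.05 to 6.29. That rule largely fixed their direction, so it is no separate check. Hdc, histidine decarboxylase, which mast cells and immature myeloid cells express, rose from 1.82 to 3.02 CPM in the controls to 6.65 to 9.11 CPM in the combination. It is also the 1 member of 9 mast cell genes tested that passed, where 6.14% of all genes passed.

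Lcn2, lipocalin 2, was the neutrophil marker that passed as lower. It measured 5929, 6343 and 6496 CPM in the Sox10-high controls, 711 CPM in control replicate 4, and 173, 1014, 651 and 420 CPM in combination replicates 1 to 4. Control replicate 4 lay within the range of the combination, the log2 fold change was -3.11 (SE 0.847, adjusted p = 0.0467, edgeR), and against control replicate 4 alone it was -0.32. Lcn2 is also expressed by mammary epithelium, and it is the 1 member that passed of 28 luminal and milk genes tested, against 6.14% of all genes.

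**Figure D3:**
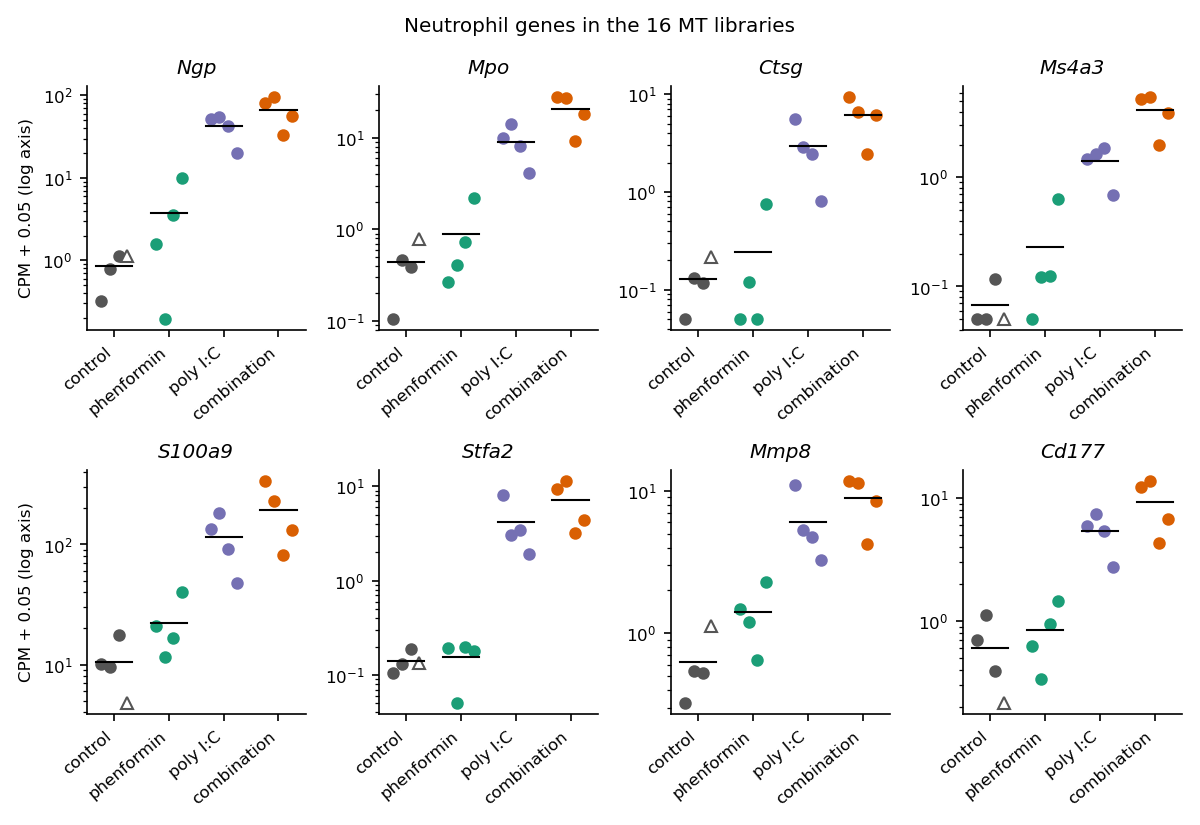
CPM plus 0.05 on a log axis for 8 neutrophil genes in the MT libraries, by treatment group. Points are libraries, bars are group means and the open triangle is control replicate 4. The combination libraries lie above all 4 controls in each panel, as 33.2 to 95.3 CPM of Ngp do above at most 1.09 CPM. Genes named for a large increase had to show this, so it is no separate check.

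Receptors that neutrophils and monocytes use for growth and recruitment rose in part. Of 13 chemoattractant and growth factor genes tested, 4 rose and none fell, where 2.81% of all genes rose and 3.33% fell. They were Csf1r, the receptor of macrophage colony-stimulating factor, Csf2rb, the shared beta chain of the GM-CSF, IL-3 and IL-5 receptors, Csf3r, the receptor of G-CSF, and Cxcr2. No ligand of the list passed. Csf2rb measured 20.3, 19.3, 20.8 and 31.2 CPM in the controls and 92.9, 69.6, 58.7 and 92.2 CPM in the combination (log2 fold change 1.78, SE 0.304, adjusted p = 0.0141, edgeR). Csf3r measured 6.36, 6.62, 7.03 and 2.89 CPM in the controls and 14.8, 17.3, 13.4 and 19.2 CPM in the combination, and every combination library was higher. Cxcr2 rose by 1.96 on the log2 scale, from 2.77 to 4.29 CPM to 5.03 to 20.5 CPM. Csf2ra, the alpha chain of the GM-CSF receptor, measured 7.68 to 9.42 CPM in the controls and 15.4 to 26.2 CPM in the combination and was called in each of the 8 fits that left out 1 library.

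A set of 19 genes, 0.106% of those tested, was called in all 8 of those fits, 17 of them higher and 2 lower, and 7 of the 19 were members of a neutrophil list. Beside the granule and marker genes above, those higher included P2ry14, the receptor of UDP-glucose, Serpina3f and Serpina3g, serine protease inhibitors of a multigene cluster among which reads can be split, Tfec, a transcription factor of macrophages, and Htr7, a serotonin receptor. Serpina3g measured 45.3 to 55.5 CPM in the controls and 117 to 188 CPM in the combination, and P2ry14 measured 4.29 to 6.49 CPM and 12 to 18.3 CPM. Tfec rose by 1.97 and Serpina3f by 1.59 on the log2 scale. Larp1b, a La-related RNA-binding protein, was a gene that fell in each of these fits, from 104, 97.5, 85.6 and 74.4 CPM in the controls to 42.7, 47.7, 46.2 and 41.9 CPM in the combination (log2 fold change -1.02, SE 0.140, adjusted p = 0.00607, edgeR). The table holds 2 identifiers with this symbol; these values are of ENSMUSG00000037814, and the other had a log2 fold change of -1.23 (adjusted p = 0.145, edgeR), so the count of either is uncertain. P2ry14, Serpina3f, Serpina3g, Tfec, Csf2ra, Elane, Cebpe, Chi3l3, Camp, Prtn3 and Ltf were chosen after their values were seen.

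Effector genes shared by neutrophils and other phagocytes rose as well. In the list of effector and oxidative burst genes 9 of 18 members rose and none fell, against 2.81% higher over all genes. The median log2 fold change was 1.22, and 0.71 against control replicate 4 alone. Cybb, the catalytic subunit of the phagocyte oxidase, measured 79.3, 71.4, 83.7 and 93.5 CPM in the controls and 184, 161, 168 and 206 CPM in the combination. It rose by 1.13 on the log2 scale (SE 0.235, adjusted p = 0.0248, edgeR), and the groups did not overlap. Ncf4, a cytosolic subunit of the same oxidase, rose by 1.52, and Ptafr, the receptor of platelet-activating factor, by 1.47. The calls of this list were 0 to 10 when single libraries were left out.

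**Figure D4:**
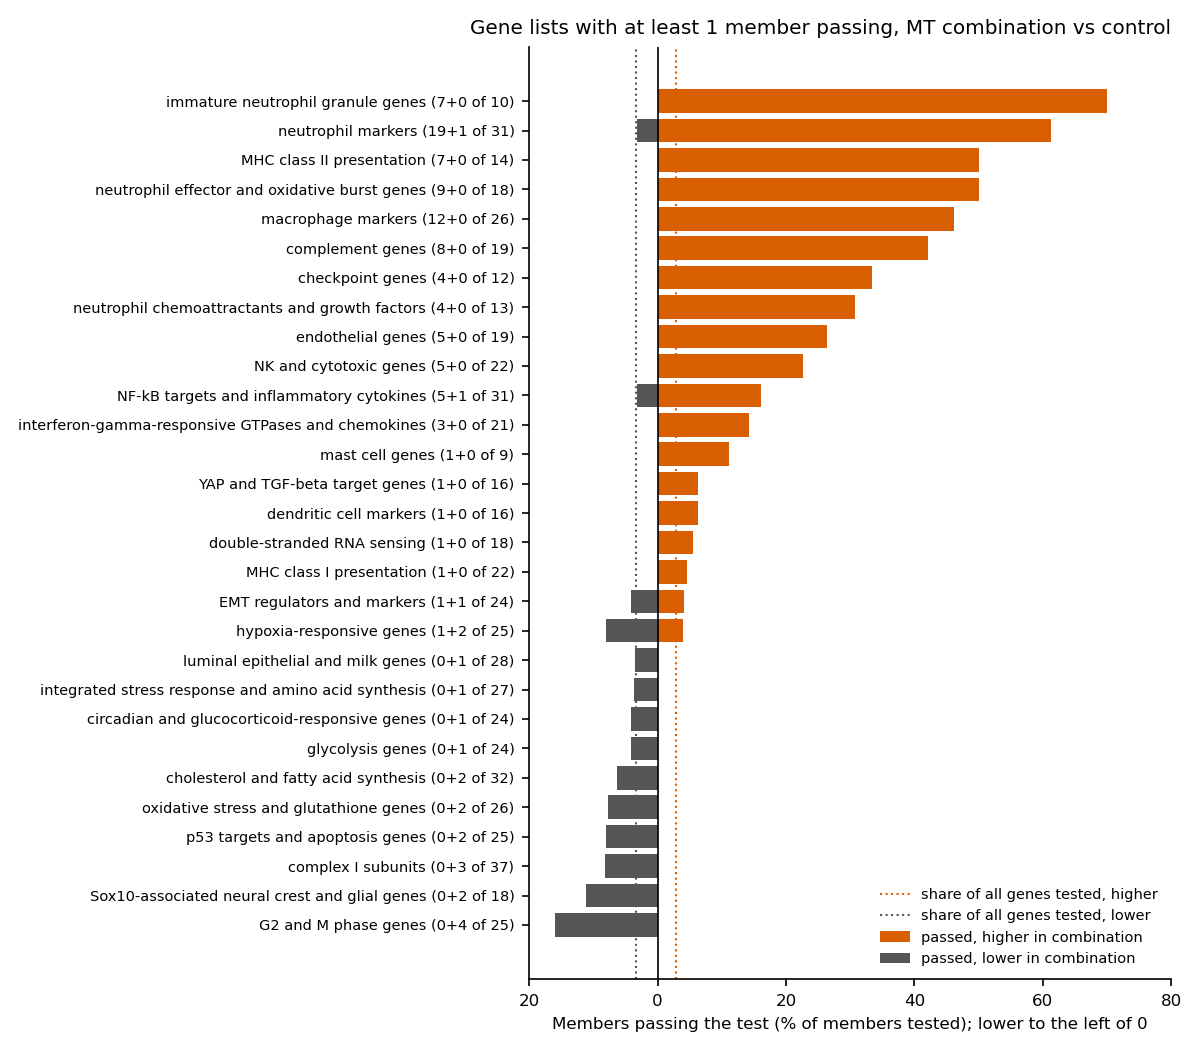
Share of the tested members of each gene list that passed the test, higher in the combination to the right of 0 and lower to the left, with counts in the row labels (higher + lower of tested). Lists with no member past the test are not drawn. The dotted lines are the shares over all genes, 2.81% higher and 3.33% lower. The granule list stands at 7 of 10, but members near 0 counts in the controls could hardly have been called lower.

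Macrophage genes rose in 12 of 26 members tested, with none lower, where 2.81% of all genes rose. The median log2 fold change was 1.16 in both the comparison of all 8 libraries and that against control replicate 4 alone. Csf1r measured 52.2, 66.0, 57.8 and 52.1 CPM in the controls and 122, 134, 134 and 179 CPM in the combination, with no overlap (log2 fold change 1.32, SE 0.208, adjusted p = 0.0104, edgeR). C1qa, a chain of the complement component C1q that tissue macrophages make, measured 119, 141, 124 and 107 CPM in the controls and 143, 250, 268 and 404 CPM in the combination. Combination replicate 1 lay next to the controls for C1qa. The summed level of all macrophage markers was 3383, 2949, 2892 and 2558 CPM in the controls and 2361, 2849, 2864 and 4437 CPM in the combination, so that only combination replicate 4 lay above the controls. Ccr2, the chemokine receptor of inflammatory monocytes, rose by 1.19 on the log2 scale. Of 19 complement genes tested 8 rose, among them C1qa, C1qc, which rose by 1.0, and Cfp, properdin, which rose by 1.86. With single libraries left out, 0 to 15 macrophage genes and 0 to 14 complement genes were called higher, and 1 gene of each list was called lower without control replicate 4.

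Antigen presentation by MHC class II was higher in part. Of 14 class II genes tested 7 rose, with a median log2 fold change of 1.33 and of 0.69 against control replicate 4 alone. Of 22 class I genes 1 rose, with a median of -0.05, and over all genes tested 2.81% rose. Cd74, the invariant chain, measured 1345, 1619, 1651 and 2046 CPM in the controls and 3398, 2927, 2983 and 3894 CPM in the combination (log2 fold change 0.99, SE 0.215, adjusted p = 0.0283, edgeR). Every combination library was above every control, and control replicate 4 was the highest of the controls. Ctss, the protease that trims the invariant chain, measured 261, 327, 348 and 323 CPM in the controls and 523, 723, 746 and 1151 CPM in the combination. H2-DMa, which loads peptides, rose by 0.59, and Ciita, the master regulator of these genes, rose by 0.95 from a range of 50.7 to 58.7 CPM to one of 74.2 to 155 CPM. Itgax, an integrin of dendritic cells and macrophages, was the 1 member that passed of 16 dendritic cell genes tested, where 6.14% of all genes passed. It measured 21.5 CPM in combination replicate 1, below the 21.6 CPM of the lowest control, and 61.3 to 72.3 CPM in the other 3 combination libraries.

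In the list of interferon-stimulated genes no member passed. It had 35 members tested, edgeR called 0 of them, DESeq2 called 2 and voom with quality weights called 14, and the median log2 fold change was 0.12. This median was 0.41 without combination replicate 1 and -0.087 without combination replicate 3. The summed level of the list was 2460 CPM in combination replicate 1 and 5660, 6619 and 4999 CPM in the other 3, against 3775 to 4697 CPM in the controls, so combination replicate 1 lay below every control and the others above every control. The 2 members with the smallest p were Trim30a, a TRIM family protein, and Ifi27l2a. Trim30a measured 39.4, 34.3, 34.6 and 112 CPM in control replicates 1 to 4 and 105 to 184 CPM in the combination (log2 fold change 1.4, adjusted p = 0.0611, edgeR), so that control replicate 4 lay within the combination range. Its fold change against control replicate 4 alone was 0.39. Ifi27l2a measured 9.56 to 17.1 CPM in the Sox10-high controls, 59.2 CPM in control replicate 4, and between 50.2 and 222 CPM in the combination, with an adjusted p of 0.0895 in edgeR. Interferon-induced genes outside the list did pass, among them Slfn5, a schlafen family protein, which rose by 1.27, and Pml, the organiser of PML nuclear bodies, which rose by 0.70 on the log2 scale. Both were chosen after their values were seen.

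Of 21 interferon-gamma-responsive GTPase and chemokine genes 3 rose, against 2.81% of all genes. They were Ciita, Socs1, the feedback inhibitor of JAK-STAT signalling, which rose by 0.85, and Cxcl9, a chemokine that attracts CXCR3-positive T cells. Cxcl9 measured 772, 564, 633 and 1110 CPM in the controls and 786, 2085, 3527 and 2397 CPM in the combination, and combination replicate 1 lay within the controls. Of 18 genes in a list of double-stranded RNA sensing and its adaptors, 1 passed, against 6.14% of all genes tested. This was Tlr4, the receptor of lipopolysaccharide. It measured 10.3 to 13.3 CPM in the controls and 19.5 to 25.8 CPM in the combination. Of the Toll-like receptors outside the list, Tlr7, a sensor of single-stranded RNA, rose by 1.49, Tlr9, a sensor of unmethylated DNA, by 1.93 and Tlr13, a sensor of bacterial ribosomal RNA, by 1.13 on the log2 scale. These 3 genes were chosen after their values were seen.

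Among 31 NF-kB targets and inflammatory cytokines tested, 5 rose and 1 fell, with a median log2 fold change of 1.22. Over all genes tested 2.81% rose and 3.33% fell. Vcam1, an adhesion molecule for leukocytes, measured 43.2, 50.8, 35.1 and 76.4 CPM in the controls and 224, 110, 160 and 221 CPM in the combination (log2 fold change 1.80, SE 0.371, adjusted p = 0.0248, edgeR). Icam1, another such molecule, rose by 1.73 and by 0.66 against control replicate 4 alone, which at 88.0 CPM was the highest control. Nfkbie, an inhibitor of NF-kB, rose by 1.23, and Il12b, the shared subunit of IL-12 and IL-23, rose by 1.94 from 0.815 to 0.990 CPM to 2.25 to 5.92 CPM. Il1b measured 8.31 to 11.6 CPM in the controls and 8.66, 35.1, 25.7 and 58.5 CPM in the combination, with combination replicate 1 at the control level. Il23a, the subunit particular to IL-23 within that pair, fell by 1.62 on the log2 scale. Icam1, Il1b and Il23a were chosen after their values were seen.

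In the lists of 22 T cell genes and 15 B and plasma cell genes tested, no member passed in edgeR. DESeq2 called 0 T cell genes and 2 B and plasma cell genes. Voom with quality weights called 20 T cell genes higher, and 1 B and plasma cell gene higher and 1 lower. Without control replicate 4, edgeR called 14 T cell genes higher, and 2 B and plasma cell genes higher and 1 lower. The median log2 fold changes in the main fit were 1.64 and 2.71. Single libraries moved these medians: they were 0.97 and 0.70 without combination replicate 1 and 3.13 and 7.50 without control replicate 4. Outside the list, Tcrg-C2, a constant region gene of the T cell receptor gamma chain with close copies among which reads can be split, was called in each of the 8 fits that left out 1 library. It measured 1.25, 1.39, 2.39 and 1.65 CPM in the controls and 4.71, 4.40, 4.73 and 6.49 CPM in the combination (log2 fold change 1.60, SE 0.224, adjusted p = 0.00607, edgeR). It was chosen after its values were seen. The summed level of the T cell genes was 138, 158, 215 and 1135 CPM in control replicates 1 to 4 and 2564, 532, 439 and 1406 CPM in combination replicates 1 to 4. Control replicate 4 lay among the combination libraries, and against it alone the median log2 fold change was 0.07 for T cell genes and 0.74 for B and plasma cell genes. Cd8a, the CD8 alpha chain, had the smallest p of the T cell list, with 11.4, 11.4, 28.8 and 67.5 CPM in the controls and 63.0 to 118 CPM in the combination (adjusted p = 0.131, edgeR). Of 22 NK and cytotoxic genes 5 rose, against 2.81% of all genes. Klrk1, the activating receptor NKG2D, measured 11.5 to 16.1 CPM in the controls and 20.4 to 41.9 CPM in the combination (log2 fold change 1.19, SE 0.237, adjusted p = 0.0237, edgeR). The other 4 were Klrb1c, the NK1.1 antigen, which rose by 1.36, Prf1, perforin, by 1.43, Fasl, Fas ligand, by 1.41, and Klrg1, an inhibitory receptor, by 1.73.

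Of 12 checkpoint genes 4 rose, against 2.81% of all genes. Pdcd1lg2, the PD-L2 ligand, measured 2.93, 5.88, 4.85 and 5.94 CPM in the controls and 8.03, 17.3, 22.9 and 30.4 CPM in the combination (log2 fold change 2.01, SE 0.356, adjusted p = 0.0156, edgeR). Tigit, an inhibitory receptor of T and NK cells, rose by 2.08, and Havcr2, which encodes TIM-3, by 1.16. Cd274, the PD-L1 ligand, rose by 0.83, although combination replicate 1 at 39.0 CPM lay within the controls. Large increases outside these lists included Penk, the enkephalin precursor, at 0.327 to 2.56 CPM in the controls and 5.77 to 10.4 CPM in the combination, and Tnfsf18, the ligand of GITR, which rose by 3.04 on the log2 scale. Fasl, Klrg1, Cd274 and Cxcr2 were chosen after their values were seen.

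Endothelial genes rose in 5 of 19 members tested, where 2.81% of all genes rose. Eng, a co-receptor of TGF-beta family ligands, rose by 1.07, Egfl7, a secreted endothelial factor, by 1.19, Tie1, an endothelial receptor tyrosine kinase, by 0.97, Plvap, a diaphragm protein of fenestrated vessels, by 0.86 and Cldn5, a tight junction claudin, by 1.32. Egfl7 measured 9.56 to 21.2 CPM in the controls and 30.5 to 36.5 CPM in the combination. No fibroblast or matrix gene of 27 passed in edgeR, while DESeq2 called 6 higher and voom with quality weights 16. Plvap and Cldn5 were chosen after their values were seen.

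The largest decreases were of genes that control replicates 1 to 3 expressed and control replicate 4 hardly did. Cyp24a1, the hydroxylase that inactivates vitamin D, was counted 213, 55, 140 and 1 times in the controls and 0 times in each combination library. Set against the limit of 3 counts over the group, it was at least 144-fold lower in the combination, and the exact counting interval of the ratio began at 116. Fkbp6, an immunophilin of the germ line, measured 16.8, 20.3, 12.9 and 0.248 CPM in the controls and at most 0.118 CPM in the combination.

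Trpm3, a cation channel, Atp1a4, a sodium pump subunit, and Kng2, a kininogen, followed the same arrangement. Trpm3 measured 11.7 to 20 CPM in the 3 Sox10-high controls, 1.90 CPM in control replicate 4, and between 0.251 and 1.06 CPM in the combination, a log2 fold change of -4.18 against all controls and -1.47 against control replicate 4 alone. Both values in turn were -4.51 and -0.86 for Atp1a4 and -4.45 and -1.19 for Kng2. Among further genes with large decreases were Col27a1, a fibrillar collagen, Mogat1, an acyltransferase of fat synthesis, Hapln2, a hyaluronan link protein, Rspo3, a potentiator of Wnt signalling, Fhl1, a LIM domain protein, and Cystm1. Their log2 fold changes were between -2.91 and -2.44 against all controls and between -1.07 and -0.51 against control replicate 4 alone. Sox10 itself fell by 6.16 on the log2 scale (SE 1.36, adjusted p = 0.0294, edgeR), and its fold change against control replicate 4 alone was 0.62, in the other direction. Of 18 Sox10-associated neural crest and glial genes tested, 2 fell, against 3.33% lower over all genes. Of 24 basal epithelial genes none passed in edgeR, while voom with quality weights called 21 higher and 1 lower.

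Metabolic and cell cycle genes changed in small numbers, where 2.81% of all genes tested rose and 3.33% fell. Of 37 complex I subunits tested 3 fell and none rose, with a median log2 fold change of -0.25 and of -0.16 against control replicate 4 alone. Against the same controls, poly I:C alone called 25 of the 37 lower, with a median of -0.50, where 19.6% of all genes were called in either direction. Phenformin alone called 0 of them, with a median of -0.16. Between the combination and poly I:C alone 0 were called, and the median was 0.27. Ndufb3 measured 93.9, 106, 89.0 and 84.4 CPM in the controls and 65.8, 69.5, 62.0 and 70.2 CPM in the combination, a fall of 0.48 on the log2 scale (SE 0.100, adjusted p = 0.0254, edgeR). Ndufa2 fell by 0.50 and Ndufa3 by 0.34, and in all 3 genes every combination library lay below every control. None of 37 subunits of complexes II to V passed in edgeR, while voom with quality weights called 2 higher and 16 lower. Of 25 hypoxia-responsive genes Adm, the vasodilator adrenomedullin, fell by 2.08, Bnip3l, a mitophagy receptor, fell by 0.96, and Angptl4, a lipoprotein lipase inhibitor, rose by 1.46. Adm measured 63.2, 48.5, 40.5 and 16.2 CPM in the controls and 5.02 to 12.4 CPM in the combination.

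Of 32 genes of cholesterol and fatty acid synthesis 2 fell, against 3.33% lower and 2.81% higher over all genes. Pmvk, a mevalonate pathway kinase, measured 74.5, 87.9, 72.9 and 25.8 CPM in the controls and 24.7 to 28.1 CPM in the combination, and its log2 fold change of -1.27 against all controls was 0.075 against control replicate 4 alone. Fdps, the farnesyl diphosphate synthase, fell by 1.11. Of 25 genes of the G2 and M phases 4 fell, among them Ube2c, which marks mitotic cyclins for destruction, by 1.30, Aurka, a spindle kinase, by 1.54, Cdc25c, a mitotic phosphatase, by 0.92 and Tpx2, a spindle assembly factor chosen after its values were seen, by 0.55. Ube2c measured 249, 294, 253 and 133 CPM in the controls and 107, 97.2, 76.7 and 95.3 CPM in the combination. No S phase gene of 25 passed in edgeR, while voom with quality weights called 7 lower. Cdkn2a, a tumour suppressor of the cyclin-dependent kinase inhibitor class, measured 109, 118, 91.2 and 58.2 CPM in the controls and 13.2 to 40.9 CPM in the combination. Cdkn1b, the inhibitor p27, fell by 0.45, from 128 to 156 CPM to 93.4 to 114 CPM. Of 24 EMT genes, Tgfbi, a matrix protein induced by TGF-beta, rose by 1.30 and the ligand gene Tgfb2 fell by 2.89.

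The single agents share the control libraries with the combination, so their values are set side by side and no overlap is drawn from them. Poly I:C alone against control called 3500 of 17857 genes, or 19.6%, and phenformin alone called 0 genes, or 0.0%, in edgeR, where 1084 genes had an unadjusted p under 0.05, beside 19 calls in DESeq2 and 0 in voom with quality weights. Of the 4 phenformin libraries 3 had Sox10 above 10 CPM. Ngp measured 51.2, 54.7, 42.3 and 19.8 CPM after poly I:C and 1.51, 0.143, 3.53 and 9.78 CPM after phenformin, beside 33.2 to 95.3 CPM in the combination. Mpo measured 9.88, 14.1, 8.11 and 4.04 CPM after poly I:C, beside 9.16 to 27.7 CPM in the combination, and at most 2.12 CPM after phenformin. Larp1b measured 36.6 to 43.9 CPM after poly I:C and 55.7 to 88.6 CPM after phenformin.

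The combination against poly I:C alone uses the control libraries only in the filter, the scaling and the shared estimate of spread. In edgeR it called 0 genes, or 0.0%, while 1076 had an unadjusted p under 0.05 (0 and 1506 in a fit of only these 2 groups), beside 3 calls in DESeq2 and 973 in voom with quality weights. All 4 libraries of both groups had Sox10 below 10 CPM. Among the genes with the smallest p, Mien1, a membrane-anchored protein encoded beside Erbb2, measured 27.8 to 29.7 CPM after poly I:C and 36.0 to 41.8 CPM after the combination, a log2 difference of 0.43 (SE 0.0906, adjusted p = 0.817, edgeR). Tlr4 measured 31.2 to 46.2 CPM after poly I:C and 19.5 to 25.8 CPM after the combination (log2 difference -0.66, SE 0.157). Prune2 measured 14.3 to 19.2 CPM after poly I:C and 5.90 to 9.64 CPM after the combination (log2 difference -0.93, SE 0.201). None of these 3 genes passed the adjustment. The groups did not overlap for any of them, but they were named for a small p, so this is no separate check. No granule gene passed between these 2 groups, with log2 differences of 0.66 (SE 0.701) for Ngp, 1.19 (SE 0.625) for Mpo and 1.58 (SE 0.647) for Ms4a3.

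The response to the combination was also tested against that of the 4T1 model, as the difference of the log2 fold changes in a joint fit of all 31 libraries. This difference passed for 864 of 18956 genes, or 4.56%. Of the 11 granule genes in that fit 5 had a larger response in MT and none a smaller one, and of 31 neutrophil markers 10 had a larger and 1 a smaller response. Ngp lay between 2.26 and 10.1 CPM in 4T1 controls and between 1.95 and 9.83 CPM in 4T1 combination libraries, and its response was larger in MT by 6.35 on the log2 scale (SE 0.983, adjusted p = 0.00226, edgeR). S100a9 lay between 29.9 and 72.1 CPM in 4T1 controls and between 29.4 and 118 CPM in 4T1 combination libraries, with a difference of 3.85 (SE 0.933, adjusted p = 0.0232, edgeR). For both genes the MT controls lay below the 4T1 controls.

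Monocyte and macrophage genes also differed between the models. Ccr2 lay between 138 and 316 CPM in 4T1 controls and between 46.1 and 105 CPM in 4T1 combination libraries, a log2 fold change of -1.68 (adjusted p = 0.0327, edgeR) where MT rose by 1.19, and the difference was 2.87 (SE 0.446, adjusted p = 0.00226, edgeR). For Csf1r the difference was 1.82, for Cd74 1.70, for Htr7 2.88 and for Nfam1, an activating receptor of myeloid cells, 2.47 on the log2 scale. Of 27 macrophage genes 9 and of 14 class II genes 7 had a larger response in MT, and none had a smaller one. Cdkn1b went the other way, with 135 to 155 CPM in 4T1 controls and 180 to 198 CPM in 4T1 combination libraries, and a difference of -0.87 (SE 0.119, adjusted p = 0.00136, edgeR). In the list of interferon-stimulated genes 0 of 36 members passed this test. Without the MT libraries above 10 CPM of Sox10 the difference passed for 3 genes.

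**Figure D5:**
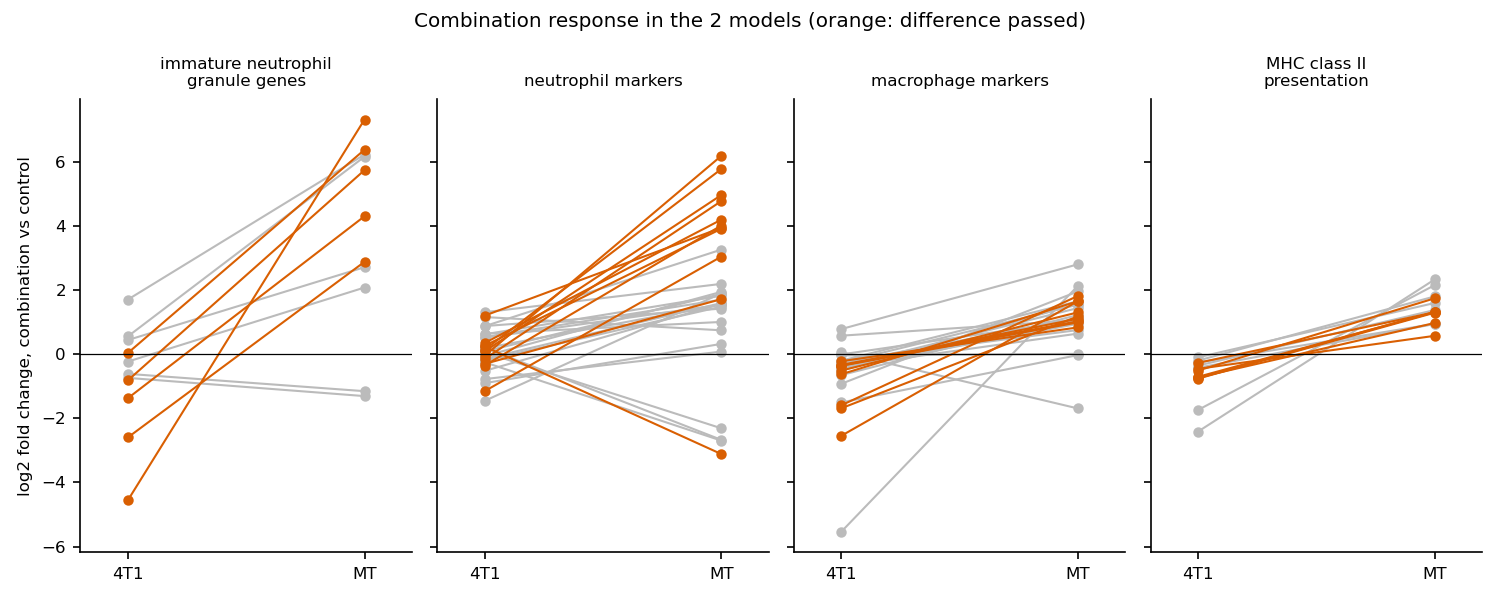
Log2 fold change of the combination over control in the 4T1 and MT models, from 1 joint fit, for the tested members of 4 gene lists. Each line is a gene and orange marks a difference between models that passed, which was so for 5 of 11 granule genes; fitted values of genes near 0 counts depend on the prior count.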

How the data were processed

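Bulk poly(A) RNA was measured in 31 libraries, of which the 8 MT combination and control libraries are described here. The authors deposited raw read counts for 39017 genes, which are whole numbers without normalisation, per the file headers and values. The submitters' processing notes name Trimmomatic 0.32.48, STAR 2.3.0, featureCounts 1.4.4 and the build mm10 (GRCm38); the annotation and the strand setting are not given in the sources used here. Total counts were 12160110 to 19295547 in the 8 libraries, and replicates of a group differed by more than counting noise (lowest chi-square per degree of freedom 9.53).

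Groups follow the titles. Low genes were removed with filterByExpr (counts of 10 and a total of 15 as its minima), libraries were scaled with TMM and genes were tested with edgeR 4.0.16 (R 4.3.3) quasi-likelihood F-tests, in 1 fit of all 16 MT libraries, whose 4 groups share 1 estimate of spread, and in a joint fit of 31 libraries for the difference between models. Calls are at an adjusted p (Benjamini-Hochberg) under 0.05. A standard error (SE) is the log2 fold change divided by the square root of F. CPM use TMM-scaled totals, except H2-Ea-ps, which is per library total. The fits were checked on simulated counts with a common spread for all genes and no split among the controls. That check does not cover the split seen here.

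The comparison, the 42 gene lists (924 of 926 genes matched) and the rules were chosen with earlier results of these data known, so a list is described by its counts and median and not tested. Named genes are those among the 12 largest changes or 8 widest gaps per direction among called genes with an informative symbol, an average log2 CPM of at least 1 and no overlap, up to 3 members of each list with the smallest p, the 8 with the smallest p for the difference between models and for the combination against poly I:C, fixed markers, and others named as chosen later; not all are printed. The mouse annotation GENCODE M21 held 37693 of the gene identifiers. Alternatives were DESeq2 1.42.0, its size factors in edgeR, voom with quality weights (limma 3.58.1), 2 other filters, a replicate block, only the groups compared, the Krt5 to Sox10 ratio (log2) as a covariate, no MT library above 10 CPM of Sox10, and leaving out each library.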

Additional observations from a re-analysis of the deposited data

Results flagged for a closer look

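In 21 of 228 groups of 4 libraries, 1 library lay far from the other 3. For independent normal values the limit used is passed by about 1 group in 20. These are unlogged CPM of chosen genes in the same 8 libraries, so that share is no chance level here. Control replicate 4 was the library in 15 of the 21 groups. It was the highest control for Krt5 (2231 CPM), Krt14 (808 CPM), Krt8 (409 CPM), Igkc (312 CPM), Trim30a (112 CPM), Icam1 (88.0 CPM), Ifi27l2a (59.2 CPM), Csf2rb (31.2 CPM), Socs1 (21.1 CPM) and Penk (2.56 CPM). It was the lowest for Lcn2 (711 CPM), Bnip3l (146 CPM), Mogat1 (4.62 CPM), Csf3r (2.89 CPM) and Atp1a4 (0.660 CPM). Control replicate 3 was the highest for Stfa2l1 (0.819 CPM) and Ms4a3 (0.0683 CPM, which is 1 count). Combination replicate 1 was the highest of its group for Ifi27l2a (222 CPM) and Tpx2 (155 CPM), combination replicate 4 the highest for Tcrg-C2 (6.49 CPM), and combination replicate 3 the lowest for Elane (1.30 CPM).

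For 62 of 114 genes the response to the combination differed between the models by the test of the difference in the joint fit, against 4.56% of all genes tested. The 114 genes were named mostly because they passed in MT, and some for the smallest p of this difference, so the 2 shares cannot be compared. The log2 fold change in MT exceeded that in 4T1 for 45 of them. Among neutrophil genes these were Ms4a3 by 11.89, Mpo by 6.57, Ngp by 6.35, Stfa2 by 6.24, Elane by 5.69, Cebpe by 5.49, Retnlg by 4.88, Cd177 by 4.37, S100a9 by 3.85, Ifitm6 by 3.74, Stfa2l1 by 3.66 and Mmp8 by 2.74. Ms4a3, Elane and Cebpe were at or near 0 counts in some groups, so their fitted differences depend on the prior count. Receptors and signalling genes were Tnfsf18 by 4.06, Pdcd1lg2 by 3.45, Htr7 by 2.88, Tlr9 by 2.48, Ccr2 by 2.87, Il1b by 2.73, Nfam1 by 2.47, Csf2rb by 2.08, Klrb1c by 2.03, Icam1 by 1.96, Csf1r by 1.82, Csf2ra by 1.78, Nfkbie by 1.60 and P2ry14 by 1.37. Antigen presentation, phagocyte and complement genes were H2-Ea-ps by 2.26, Cfp by 1.90, Ncf4 by 1.90, Cd74 by 1.70, Ctss by 1.58, C1qa by 1.46, Itgax by 1.46, C1qc by 1.36, Cybb by 1.32 and H2-DMa by 1.03. The rest were Penk by 3.24, Tfec by 2.37, Serpina3g by 1.79, Serpina3f by 1.68, Slfn5 by 1.63, Prune2 by 1.36, Tgfbi by 1.31, Tie1 by 1.27 and Eng by 1.09.

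The MT response was below that in 4T1 for the other 17, with differences of -0.87 for Cdkn1b, -0.93 for Larp1b, -1.23 for Bnip3l, -1.24 for Cdc25c, -1.78 for Aurka, -1.95 for Ube2c, -2.33 for Cystm1, -2.85 for Col27a1, -3.15 for Tgfb2, -3.36 for Lcn2, -3.56 for Adm, -3.97 for Fhl1, -4.95 for Atp1a4, -5.31 for Trpm3, -5.56 for Kng2, -5.80 for Sox10 and -8.87 for Cyp24a1, which was at 0 counts in the MT combination. The part of the Sox10 and Krt5 difference among MT controls in these values was not tested.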

How the results depend on the processing

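The comparison of the combination with control called 2916 genes in DESeq2 (1394 higher and 1522 lower), 9378 in voom with quality weights (4766 and 4612), 364 without a filter on low counts (229 and 135) and 51 in a fit of only these 8 libraries (49 and 2). With the covariate for Krt5 and Sox10, and without MT libraries above 10 CPM of Sox10, edgeR called 0 genes in either direction. Leaving out 1 library gave 19 to 5375 genes called, 17 to 2870 higher and 2 to 2505 lower, with the extremes at control replicates 1 and 4. DESeq2 size factors and the filter of 1 CPM in 4 libraries stayed within 1.5 times.

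The labels do not say whether replicate numbers pair the libraries. Same-numbered combination and control libraries correlated by -0.29, 0.18, 0.10 and 0.29 in their deviations from the group means. Not every library correlated best with its own number. These deviations also hold the differences in Sox10 and Krt5 within a group, so they cannot settle whether pairs exist. With the replicate number as a block, 625 genes were called, of which 250 were lower.

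Poly I:C against control called 10642 genes in voom, 1568 with the covariate, 0 without the MT libraries above 10 CPM of Sox10 and 1512 to 6256 with 1 library left out. Phenformin against control called 19 genes in DESeq2, and the combination against poly I:C called 3 in DESeq2 and 973 in voom; with 1 library left out both gave 0. The difference between models passed for 2074 genes in DESeq2, 7366 in voom, 465 without a filter, 109 with the covariate, 3 without the MT libraries above 10 CPM of Sox10 and 230 to 4474 with 1 library left out.

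Of the 100 named genes that passed, those with a value kept their direction in each of these settings, except Pmvk (0.075) and Sox10 (0.62) without the MT libraries above 10 CPM of Sox10. Genes named for a large change or a wide gap had to show no overlap between the groups, control replicate 4 included. Their direction was thus largely fixed by that rule. Of all genes that fell, 515 of 565 kept their direction without the MT libraries above 10 CPM of Sox10. All 100 also passed in DESeq2, in voom and without control replicate 4, 68 with the block, 24 of 97 in the fit of only these 8 libraries, 16 without control replicate 1 and 0 with the covariate. The cause of these changes was not tested, and some of the fits also hold fewer libraries. Where 1 control is left, it is assumed to vary like the other groups. Genes under about 1 CPM rest on few counts, and their fold changes are imprecise.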
